A study of Homo sapiens with 28 samples.

Results

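Very wide regions of open chromatin were followed through a series of olaparib-treated ovarian cancer cell populations. A peak here is a stretch of DNA that the authors' consensus peak table lists as accessible, and a very wide peak is an autosomal one whose end minus start is at least 3000 bp. The rule uses width alone, and 975 of the 105048 consensus peaks meet it. They are compared with the 102441 narrower autosomal peaks. The 1632 peaks on the X chromosome, 8 of them at least 3000 bp wide, belong to neither set but were kept in every fit and adjustment.

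The cells are Kuramochi, an established ovarian cancer line with a mutation in BRCA2, which the labels call epithelial. All 10 groups carry that background, and each has 2 ATAC-seq libraries. P10 and P320 are drug-naive cells exposed for 9 days to 10 or 320 uM olaparib, an inhibitor of the DNA repair enzyme PARP. The 7 T populations are resistant cells named for the olaparib dose in uM to which they were adapted and at which they are kept, which doubles at each step: T5, then T10, T20 and T40, then T80, T160 and finally T320. They were sorted as low for CD24 and high for CD44. C is the untreated population, also sorted on CD24 and CD44. The labels of P10 and P320 name no sort, so in comparisons of P with C or with T the sort and the exposure cannot be told apart. The labels describe duplicates without saying whether these were separate cultures, so p-values measure only the spread between 2 libraries of a group, which may be technical. Another 8 samples in the labels, T320 cells with and without drug and after drug withdrawal, were not analysed here.

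ATAC-seq uses a transposase that inserts sequencing adapters into DNA not covered by nucleosomes, so the number of reads over a region rises with how open it is and with how many cells have it open. In bulk samples, fewer open cells and less opening per cell cannot be told apart. Most accessible sites are short, the length of 1 or a few missing nucleosomes. Long accessible stretches are typical of promoters in CpG islands, runs of DNA rich in the CG dinucleotide and bound by general activators such as SP1, and of dense clusters of enhancers around genes that define or regulate a cell type.

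Start sites of coding genes lie inside many of the wide peaks, and 6 of these are shown because the results turn on them. KLF13, IRS2 and USP12 have the largest rises in P320 among wide peaks with a listed start inside. CDKN2A and WT1 lie in wide peaks that fell in T320, and SPTBN1 lies in 1 of the 4 most constant wide peaks. Each sequence is the RefSeq window of GRCh38.p14 on autosomes, 250 bases before to 50 bases after the start, given 5′ to 3′ on the gene's strand. Capitals mark matches on either strand to 7 motifs, namely the GC box GGGCGG bound by SP and KLF factors, the CCAAT box CCAAT, the TATA box TATAAA, the AP-1 site TGANTCA, the ETS site CCGGAAG, the palindromic NRF1 site and the E-box CACGTG.
KLF13: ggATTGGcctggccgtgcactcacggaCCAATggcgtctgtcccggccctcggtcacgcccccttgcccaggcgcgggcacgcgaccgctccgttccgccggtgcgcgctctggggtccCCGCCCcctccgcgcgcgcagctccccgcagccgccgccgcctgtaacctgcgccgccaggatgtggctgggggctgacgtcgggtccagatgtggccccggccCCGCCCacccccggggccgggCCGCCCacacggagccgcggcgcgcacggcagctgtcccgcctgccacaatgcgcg
IRS2: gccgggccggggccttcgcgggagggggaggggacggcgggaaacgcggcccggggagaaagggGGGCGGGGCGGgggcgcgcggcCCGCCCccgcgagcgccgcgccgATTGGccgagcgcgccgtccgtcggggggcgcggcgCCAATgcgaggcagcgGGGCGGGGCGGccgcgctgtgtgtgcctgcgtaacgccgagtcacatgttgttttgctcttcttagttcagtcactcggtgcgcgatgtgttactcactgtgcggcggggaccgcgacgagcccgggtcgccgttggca
USP12: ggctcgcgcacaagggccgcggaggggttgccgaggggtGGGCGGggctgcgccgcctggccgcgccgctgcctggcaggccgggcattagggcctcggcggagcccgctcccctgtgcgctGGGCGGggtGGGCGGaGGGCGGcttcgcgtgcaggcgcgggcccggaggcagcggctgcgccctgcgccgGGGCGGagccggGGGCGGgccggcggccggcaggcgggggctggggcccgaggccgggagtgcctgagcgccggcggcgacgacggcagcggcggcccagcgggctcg
CDKN2A: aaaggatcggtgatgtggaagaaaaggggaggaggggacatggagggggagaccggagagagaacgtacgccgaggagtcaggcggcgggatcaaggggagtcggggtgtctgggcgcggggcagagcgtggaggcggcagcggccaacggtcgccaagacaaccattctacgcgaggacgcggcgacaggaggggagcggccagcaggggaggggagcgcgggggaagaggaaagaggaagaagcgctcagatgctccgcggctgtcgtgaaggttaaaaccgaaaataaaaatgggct
WT1: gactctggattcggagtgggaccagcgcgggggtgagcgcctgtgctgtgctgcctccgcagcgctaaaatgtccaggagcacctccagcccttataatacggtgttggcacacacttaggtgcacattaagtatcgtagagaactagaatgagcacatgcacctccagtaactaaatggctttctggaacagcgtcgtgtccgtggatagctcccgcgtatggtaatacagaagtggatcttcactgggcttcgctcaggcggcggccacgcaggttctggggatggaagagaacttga
SPTBN1: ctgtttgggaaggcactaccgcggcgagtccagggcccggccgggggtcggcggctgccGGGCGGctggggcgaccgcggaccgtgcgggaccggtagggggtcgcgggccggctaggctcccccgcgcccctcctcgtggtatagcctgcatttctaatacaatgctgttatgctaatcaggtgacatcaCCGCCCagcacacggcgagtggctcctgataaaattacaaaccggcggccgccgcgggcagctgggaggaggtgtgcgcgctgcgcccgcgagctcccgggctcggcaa
The KLF13 window holds 43 CG dinucleotides, 3 GC boxes and 2 CCAAT boxes, and lies at chr15:31326585-31326884 on the plus strand. The IRS2 window, at chr13:109786534-109786833 on the minus strand, holds 50 CG dinucleotides, 5 GC boxes and 2 CCAAT boxes. The USP12 window, at chr13:27171762-27172061 on the minus strand, has the highest G and C content of the 6, 84.3%, and 6 GC boxes. The CDKN2A window (chr9:21995275-21995574, minus strand) and the WT1 window (chr11:32433991-32434290, minus strand) hold 28 and 17 CG dinucleotides and no match to any of the 7 motifs. The SPTBN1 window (chr2:54558133-54558432, plus strand) holds 36 CG dinucleotides and 2 GC boxes. A match describes letters and is not evidence of binding.

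Across all promoter windows wholly inside a wide peak, 698 windows of 495 genes, the median number of CG dinucleotides was 30.5, against 27 in the 13172 windows inside narrower autosomal peaks and 21 in all 21156 autosomal windows. The GC box was present in 76.2% of windows inside wide peaks, against 71.7% inside narrower peaks and 56.6% of all windows. A CCAAT box was in 26.6% of windows inside wide peaks, against 34.9% inside narrower peaks and 34.4% of all windows. The ETS site was in 6.73% of windows inside wide peaks, against 18.4% inside narrower peaks and 12.9% of all. The TATA box stood in 6.16%, 4.72% and 9.51% of the windows in the same order, and the AP-1 site in 5.16%, 4.56% and 6.08%. These shares describe the sequences, with no test, and windows of 1 gene overlap.

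The wide peaks were 3000 to 6145 bp wide with a median of 3286 bp, against a median of 1113 bp for the narrower peaks. They made up 0.943% of autosomal peaks and 2.64% of the autosomal peak length. Their median level was 36.6 CPM (counts per 1000000, scaled with TMM factors), against 5.53 CPM for narrower peaks, and per kb of width it was 10.9 against 5.11 CPM. Wide peaks were thus also read more deeply, with a median of 707 counts per library against 104, and a minimum mean of 157. Libraries held 9627970 to 29699950 counts in all peaks, of which 414314 to 1504896 lay in wide peaks. Width was set by the authors' consensus over libraries, whose merging steps are not given in the sources used here. Width and level were thus not measured independently.

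Wide peaks lay mostly at gene ends. Of the 975, 647 (66.4%) lay within 1 kb of a listed start or of the first or last base of a protein-coding gene, against 15.8% of the narrower peaks. Gene bodies held 196 wide peaks (20.1%, against 42.1%). The other 132 wide peaks (13.5%, against 42.1%) lay between genes, at a median of 29638 bp from the nearest coding gene, and 80 of them within 50 kb. A listed coding start lay inside 452 wide peaks, and 44 held the starts of several coding genes. A long noncoding RNA gene was overlapped by 29.2% of wide and 18.7% of narrower peaks, and a microRNA gene by 1.64% (16 peaks) and 0.249%. Levels per kb differed little by position, with medians of 11.4 CPM per kb at gene ends, 9.59 in gene bodies and 10.2 between genes.

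The genes at or around wide peaks were mostly named once. Of 891 genes with a wide peak at an end or in the body, 39 had several. RASSF8, a Ras-association domain gene, had 4, and SEPTIN9, a cytoskeletal GTPase, and BCAR3, an adaptor protein, had 3 each. Neighbouring wide peaks were a median of 1155797 bp apart, and 19 pairs lay within 10 kb. By chromosome, the share of peaks that were wide ran from 0.443% on chromosome 15 to 1.42% on chromosome 14.

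The 8 widest peaks all lay at gene ends. The widest, 6145 bp at chr6:131945580-131951725, covers CCN2, a secreted matrix protein and a classic target of the YAP coactivator. ARHGDIA, a regulator of the actin cytoskeleton, had a peak of 6087 bp, LAMA5, a basement membrane laminin chain, 5756 bp, and the transcription factor FOXO3 5514 bp. TRIM8, ANKRD33B, NOL4L and the translation elongation factor gene EEF1A1 followed at 5512, 5390, 4971 and 4966 bp. Only the NOL4L peak among these 8 passed the threshold against C in P10 or P320, with 58.3 and 52.9 CPM in P10, 48.1 and 47.0 in P320 and 25.5 and 17.2 in C. None of the 8 passed it in T320.

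The highest levels per kb were at other genes. BCAT1, a branched-chain amino acid transaminase, stood first at 94.4 CPM per kb, followed by the pseudokinase gene TRIB1 at 61.0. A peak overlapping the noncoding RNA MALAT1 had 59.8 CPM per kb. The RASSF8 end peak, EGR1, an immediate early transcription factor, the histone pairs H1-4 with H2BC5 and H2BC11 with H2AC11, and RNF139 followed between 52.8 and 57.2 CPM per kb. The MALAT1 peak did not pass the threshold against C in T320 or P320.

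Lists of marker genes chosen with earlier results known were set beside the label. Of 28 epithelial genes 24 had a peak at an end, and of 25 Müllerian and serous lineage genes 21 did. Of the markers of other cells, 7 of 15 blood, 6 of 9 endothelial, 4 of 9 fibroblast, 2 of 7 hepatocyte and 9 of 10 neural genes did. Only KRT8, a keratin of simple epithelia, had a wide peak among the epithelial genes. Wide peaks at the lineage genes BCAM, GATA6, MEIS1, MEIS2 and WT1, at the neural gene SOX2 and at the endothelial genes CLDN5 and ERG were also present, and none lay at blood, fibroblast or hepatocyte genes.

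Wide peaks took a larger share of all autosomal peak counts in the briefly exposed cells than in the adapted or untreated ones. The share was 5.11% and 5.03% in the P320 libraries and 4.90% and 4.83% in P10. In C it was 4.10% and 4.15%. Along the dose series, the share was 4.06% and 4.07% for T5, then 4.39% and 4.33% for T10, 4.37% and 4.50% for T20, and 4.34% and 4.68% for T40. For T80 it was 4.42% and 4.59%, for T160 4.50% and 4.56%, and for T320 4.04% and 4.36%. Every P library was thus above every T and C library, and the T320 libraries lay on both sides of C. The 4 P libraries averaged 4.97% ± 0.129 and the 14 T libraries 4.37% ± 0.198 (SD). An exact two-sided permutation test over libraries gave p = 0.000654, the smallest it can give, and 0.00196 after Benjamini-Hochberg adjustment over 3 such tests. Libraries of 1 population share their culture history, and over the means of 2 P and 7 T populations the exact permutation p was 0.0556, again the smallest possible. P against C gave an exact permutation p of 0.133, the smallest that 4 against 2 libraries allow, and T against C gave 0.167. Because peak width came from the authors' consensus over libraries, the wide set is not independent of the shares compared. How far this raised the share of any group was not tested.

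Position divided this difference. Wide peaks at gene ends held 3.73% of counts in P320 and 3.51% in P10, against 2.79% in C, 2.71% in T5 and 2.86% in T320. Narrower peaks at gene ends held 37.9% in P320, 32.5% in P10 and 30.5% in T320, against 30.0% in C, so in P320 their share was higher as well. Wide peaks elsewhere held 1.34% to 1.43% in the means of all 10 groups.

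**Figure D1:**
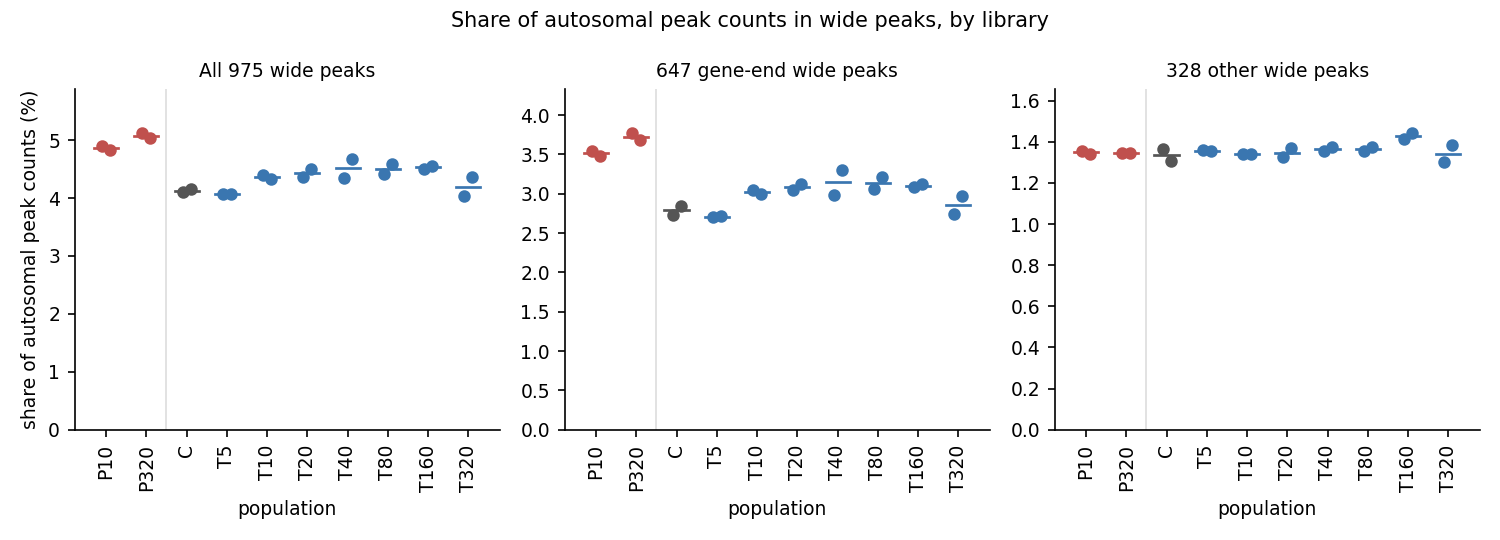
Share of autosomal peak counts that lie in very wide peaks (percent, linear axis), for each library (points) and the mean of 2 libraries (lines) in P10, P320, C and T5 to T320, with panels for all wide peaks, those at gene ends and those elsewhere. The P libraries lie between 4.83% and 5.11%, above all T and C libraries, and the part at gene ends carries the difference.

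Change was tested peak by peak with edgeR's quasi-likelihood test over all 105048 peaks. A peak is called when its Benjamini-Hochberg adjusted p is under 0.05 and its log2 fold change is at least 1 in size, and "rose" and "fell" are used only of called peaks. Across all 10 groups in 1 test, 569 wide peaks (58.4%) differed, against 69.6% of all peaks. With the adjusted p alone and no fold minimum the order turned, with 835 wide peaks (85.6%) against 76.1% of all peaks. Which group was highest differed between the sets. Of those 569, 237 (41.7%) had their highest level in P320 and 106 (18.6%) in P10, while 143 (25.1%) had their lowest in T320 and 108 (19.0%) in T5. Of the 71553 narrower autosomal peaks that differed, 13.8% were highest in P320 and 17.5% in P10, and 20.1% were lowest in P320 and 21.3% in P10. Among wide peaks at gene ends P320 was highest in 55.7% of 361, and among wide peaks elsewhere in 17.3% of 208.

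**Figure D2:**
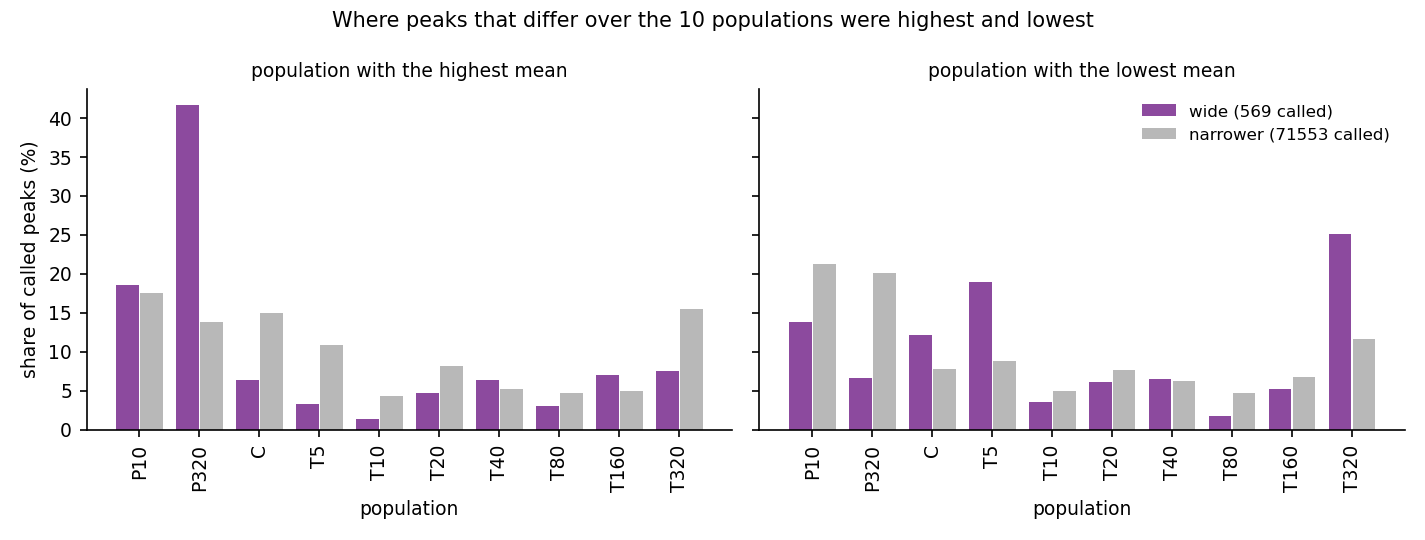
Share of peaks (percent) with their highest level and their lowest level in each of the 10 groups, among peaks that differed over the groups, for wide and narrower autosomal peaks. P320 holds the highest level of 41.7% of the wide peaks and of 13.8% of the narrower ones.

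Against C and with the fold minimum, the share of wide peaks called was below that of all peaks in each of the 7 adapted populations. The 2 sets differ in level. Among peaks of matched level regardless of position, given further below for T5 to T40 and for T320, this gap did not appear. In T5, 23 wide peaks were called (8 higher, 15 lower; 2.36%), against 9.19% of all peaks (4.73% higher, 4.46% lower), and 14 were called without T5 replicate 2. In T10, 56 were called (25 higher, 31 lower; 5.74%), against 17.7% (8.51% higher, 9.22% lower). In T20 the count was 103 (47 higher, 56 lower; 10.6%), against 24.5% (11.2% higher, 13.3% lower). In the next 3 populations more wide peaks were higher than lower. T40 had 122 called (70 higher, 52 lower; 12.5%), against 25.2% of all peaks (11.8% higher, 13.3% lower). T80 had 124 (73 higher, 51 lower; 12.7%), against 26.0% (12.3% higher, 13.6% lower). T160 had 98 (54 higher, 44 lower; 10.1%), against 23.5% (11.0% higher, 12.5% lower). In T320, 142 wide peaks were called, 65 higher and 77 lower, which is 14.6% against 30.5% of all peaks (15.0% higher, 15.5% lower). All these called peaks had libraries that did not overlap between the population and C. A call at this threshold with 2 libraries per group makes that likely, so it is not separate support, and it was not counted over all peaks.

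Without the fold minimum the order turned in 5 of the 7 adapted populations. By adjusted p alone, T5 had 10.5% of wide against 13.0% of all peaks and T10 25.6% against 25.8%, where wide peaks stayed lower. T20 then had 40.8% against 35.3%, T40 44.0% against 36.6%, T80 42.6% against 37.4%, T160 36.5% against 33.8% and T320 42.7% against 42.1%. P10 had 43.7% against 33.1% and P320 44.3% against 19.0%. T320 over P320 had 61.6% against 47.3%, and T10 over P10 48.1% against 46.9%. Wide peaks, which held more counts, thus passed with changes of less than 2-fold in a larger share than all peaks did.

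P320 stood apart in direction. There 118 wide peaks were called, 12.1% against 11.8% of all peaks, and 109 were higher and 9 lower. Over all peaks 3.94% were higher and 7.91% lower. Narrower peaks at gene ends also had more rises than falls in P320, given further below, so this direction is not particular to wide peaks. P10 had 112 called wide peaks, 11.5% against 22.1%, with 89 higher and 23 lower, while over all peaks 9.32% were higher and 12.8% lower. The median log2 fold change of wide peaks was 0.40 in P320 and 0.29 in P10, against -0.12 and -0.11 for narrower peaks. In the adapted populations the wide median lay between -0.05 in T5 and 0.22 in T40, and in T320 it was 0.04 against -0.02. Part of this direction moved with the scaling. With an offset that removes trends with abundance within each library, P320 had 36 higher and 25 lower wide peaks, 59.0% higher against 92.4%, and a median of 0.16.

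The share of higher calls fell by over 10 points under the same offset in T10 (23.0% against 44.6%), T20 (23.7% against 45.6%), T40 (35.4% against 57.4%), T80 (33.0% against 58.9%) and T160 (28.6% against 55.1%). More wide peaks were then lower than higher in T40 (40 higher, 73 lower), T80 (35 higher, 71 lower) and T160 (26 higher, 65 lower), the reverse of the TMM scaling. The small positive wide medians of T10, T20 and T160 became -0.04, -0.01 and -0.05 with it. With fold changes taken relative to the other peaks of the same 5 Mb window, T320 had 81 called wide peaks, 8.31%, with 41 higher and 40 lower, and P320 had 120, of which 96.7% were higher. These were only partly the same peaks. They included 63 of the 142 called in T320 with the TMM scaling, and 77 of the 118 called in P320.

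**Figure D3:**
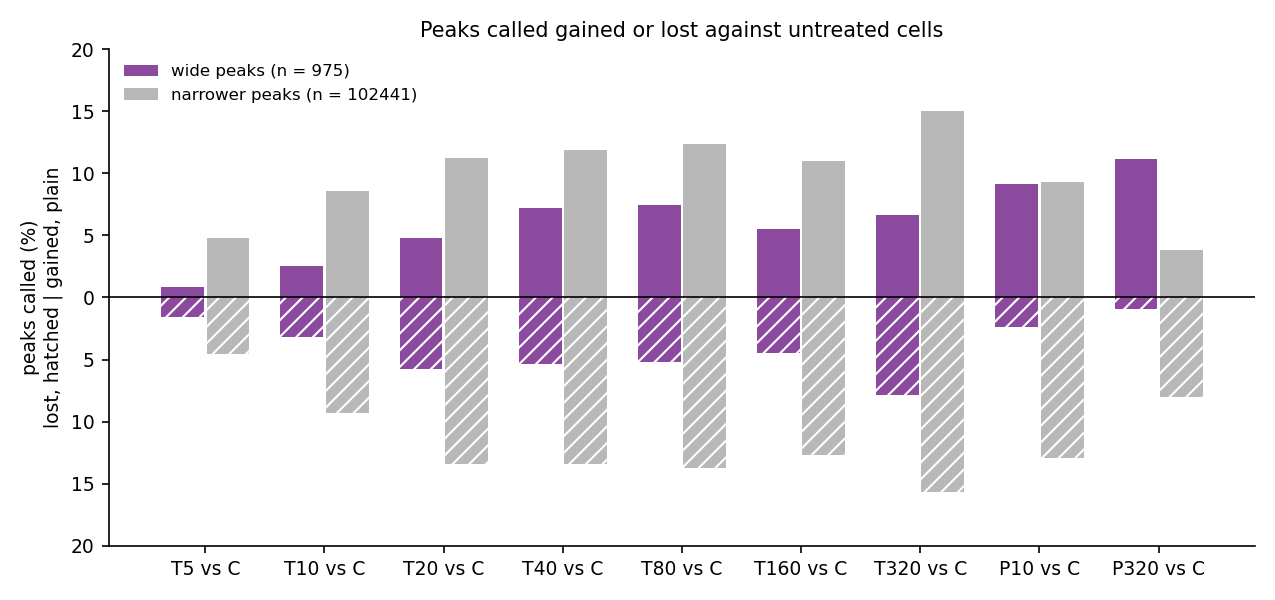
Percent of very wide and of narrower autosomal peaks called higher (above 0) and lower (below 0, hatched) against C in T5 to T320, P10 and P320. Wide peaks in P320 are 11.2% higher and 0.923% lower, against 3.84% and 8.05% of narrower peaks.

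Position and level were then held in view together, as descriptions. In P320, 102 of 647 wide peaks at gene ends rose (15.8%) and 1 fell, against 13.7% that rose among narrower gene-end peaks. By width class, narrower gene-end peaks had 157 rises and 85 falls under 1000 bp, and 526 and 79 from 1000 bp. From 1500 bp they had 811 rises and 29 falls, from 2000 bp 516 and 7, and from 2500 bp 209 and 2. Of the 328 wide peaks elsewhere, 15 were called (4.57%), against 11.3% of narrower peaks elsewhere. Among peaks at gene ends with a mean level of 26.0 to 54.5 CPM, the middle range of the wide peaks, 17.6% of 341 wide peaks were called in P320 against 5.74% of 3466 narrower ones. In T320 the share was 9.43% of wide gene-end peaks and 24.7% of wide peaks elsewhere, against 13.8% and 33.9% of narrower ones. Within the same range of level, regardless of position, T320 called 12.1% of wide and 12.3% of narrower peaks. In the same order T5 called 1.85% and 1.59%, T10 5.13% and 4.96%, T20 10.3% and 8.89%, and T40 11.3% and 10.2%. The range matches CPM over the whole peak and not CPM per kb.

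Width classes showed where the step lay. At gene ends in P320 the median log2 fold change was 0.09 for peaks under 1000 bp, 0.25 from 1000 bp, 0.42 from 1500 bp, 0.53 from 2000 bp, 0.59 from 2500 bp, 0.62 from 3000 bp, 0.55 from 3500 bp and 0.47 for the 75 of 4000 bp or more. The value grew with width up to about 3500 bp and no step stood at 3000 bp. In T320 at the same positions it stayed between -0.03 and 0.11 in all 8 classes. On either side of the threshold, the 3000 bp peaks at ATP8B2 and LAMC1 had log2 fold changes of 0.54 and 0.71 in P320 and -0.34 and 0.02 in T320. The 2998 bp peak at SPRY4, just outside, had -0.09 in P320 and 0.38 in T320.

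**Figure D4:**
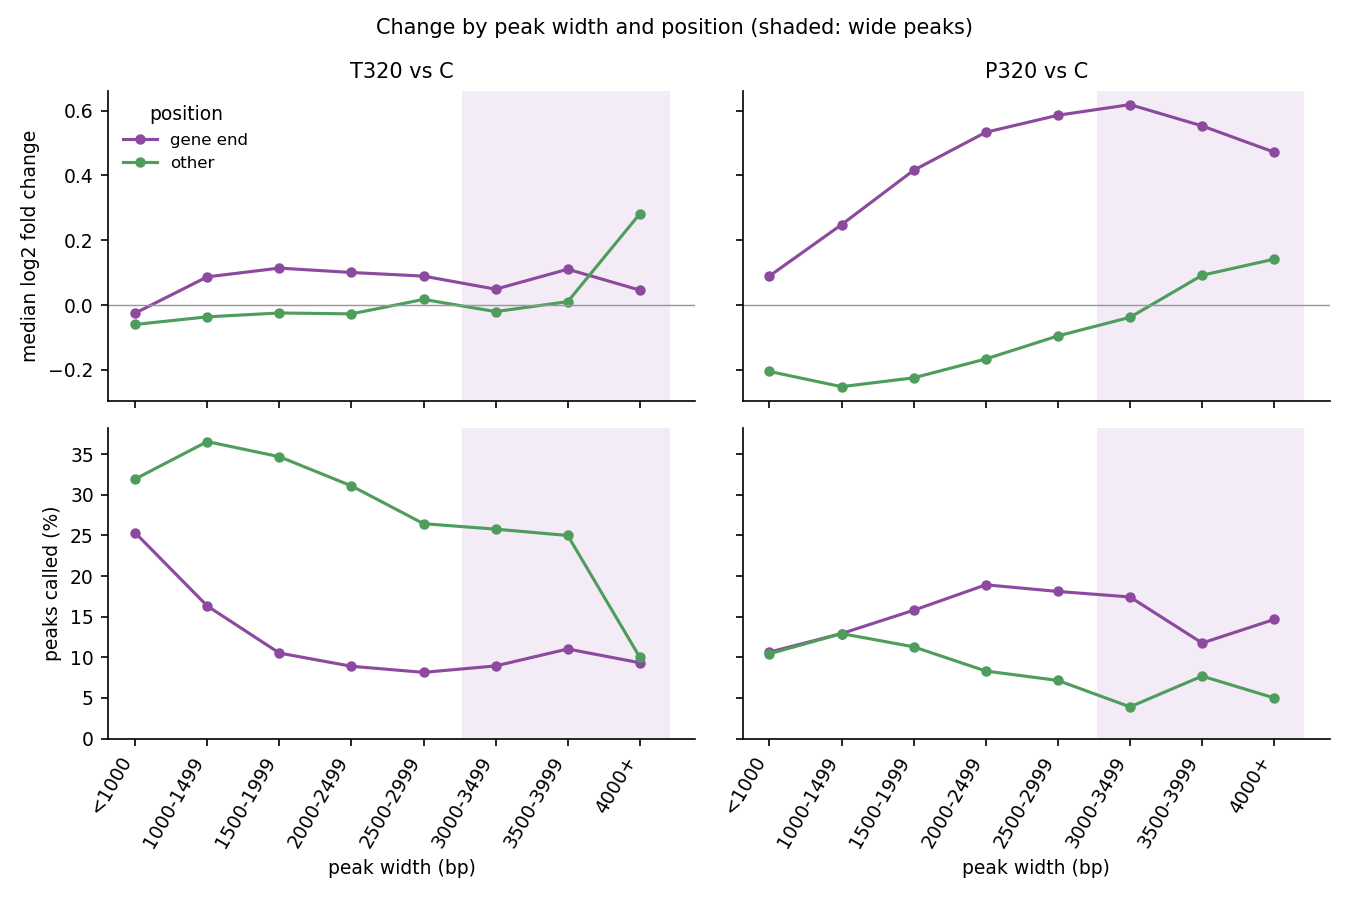
Median log2 fold change against C (upper panels) and percent of peaks called (lower panels) by peak width class in bp, for peaks at gene ends and elsewhere, in T320 (left) and P320 (right); shading marks the very wide peaks. At gene ends in P320 the median goes up with width to 0.62 in the class from 3000 bp, while in T320 it stays between -0.03 and 0.11.

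In T320 the wide peaks with the largest rises included those of the iron storage genes. The largest was at chr19:52991155-52994478, between genes and 19443 bp from ERVV-1, an endogenous retroviral envelope gene, with 69.3 and 93.3 CPM in T320 and 9.4 and 7.1 CPM in C. Its log2 fold change was 3.32 ± 0.22 (SE; edgeR adjusted p = 1.4e-07). The peak at FTL, the ferritin light chain, and GYS1, a glycogen synthase, had 78.4 and 128 CPM in T320 and 15.9 and 9.9 CPM in C. The rise was 3.01 ± 0.25. The peak at FTH1, the ferritin heavy chain, and BEST1 had 98.7 and 140 CPM in T320 and 37.7 and 17.4 CPM in C, a rise of 2.13 ± 0.27. Neither ferritin peak overlapped between the groups, although the C libraries of FTH1 differed widely.

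Both ferritin peaks also rose in the briefly exposed cells, with 110 and 110 CPM at FTH1 in P320 and 157 and 142 in P10, and log2 fold changes of 2.01 and 2.45. Along the doses, the FTH1 peak had 32.5 and 33.0 CPM in T5, and T20 had 28.4 and 25.1. T40 had 64.4 and 70.5 CPM, T80 had 91.0 and 129, and T160 had 129 and 169. It was within the range of C up to 20 uM and above it from 40 uM. The FTL peak was called from T10 on, with log2 fold changes of 1.19 in T10 and 1.06 in T20, and 1.13 in P320.

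The other large rises in T320 were at PPM1H, a protein phosphatase (2.07 ± 0.33), CEBPB, a stress-responsive transcription factor (2.03 ± 0.24), and VMP1, an autophagy membrane protein (1.98 ± 0.25). CEBPB had 58.8 and 70.4 CPM in T320, 32.3 and 37.6 in P320 and 17.6 and 14.2 in C, and rose in P320 by 1.14. VMP1 had 114 and 150 CPM in T320 and 44.8 and 22.4 in C, and stood at 29.0 and 28.4 in P320. VMP1 was called in all 7 adapted populations, but in T5 its change fell to 0.94 without 1 of the libraries.

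The largest fall in T320 was at CDKN2A, which encodes the cell cycle inhibitors p16 and ARF. The peak at chr9:21993963-21997043 held 11 and 4 counts (0.9 and 0.2 CPM) in T320, against 524 and 1372 counts (43.0 and 64.7 CPM) in C. Its log2 fold change was -6.86 ± 0.64 (edgeR adjusted p = 1.9e-07), and in T40, with 8 and 4 counts, it was -6.99. In P320 it had 67.7 and 56.5 CPM, with a log2 fold change of 0.20. Of the other adapted cells, T5 had 26.2 and 28.0 CPM, T10 16.3 and 16.8, T20 9.9 and 3.1, T80 4.9 and 4.6, and T160 12.2 and 15.2. All adapted libraries were below both C libraries, and the order did not follow the dose.

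The peaks beside it moved with it, a check chosen after its values were seen. Going out from the CDKN2A peak until the T320 mean reached 10% of the C mean gave a run of 16 consecutive peaks, chr9:21854369-22119830, from inside MTAP, a methionine salvage enzyme, past CDKN2B. Summed over the run, T320 had 6.16 and 0.717 CPM and C had 221 and 292 CPM, a gap that the rule fixed in advance. The other populations played no part in the rule. T5 summed to 132 and 158 CPM, T10 to 86.1 and 82.2, T20 to 44.2 and 14.5, T40 to 1.70 and 1.17, T80 to 22.8 and 17.8, and T160 to 57.8 and 66.7. P320 had 264 and 249 CPM. The 10 peaks before the run kept 64.6 and 80.4 CPM in T320, against 139 and 135 CPM in C, and the 10 after it 39.3 and 54.2 against 55.5 and 45.7. Loss of the DNA and loss of its accessibility cannot be told apart from peak counts.

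Falls in T320 were also found at lineage and matrix genes. BCAM, a laminin receptor of serous epithelium, had 8.6 and 4.8 CPM in T320 and 48.8 and 50.1 CPM in C, a fall of 2.92 on the log2 scale, and each step of dose from T5 to T80 had a lower mean. AGRN, the basement membrane proteoglycan agrin, had a 4009 bp peak in its body with 19.9 and 18.0 CPM in T320 and 108 and 135 in C. It fell by 2.68, and was already at 36.9 and 43.5 CPM in T5. A peak 169666 bp from ATP5MC3 fell by 2.60, the body peak of the repressor gene ZHX2 by 2.50, and a peak 17909 bp from FJX1, a YAP-regulated secreted factor, by 2.48. WT1, the transcription factor used to diagnose serous ovarian tumours, had 17.8 and 18.3 CPM in T320, 60.6 and 62.4 in P320 and 39.1 and 60.3 in C. Its fall in T320 was 1.46, and no T library overlapped C.

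In the other adapted populations the largest changes were mostly at these peaks, and a few more loci had them. In T5 the largest rises were at VMP1 and SEMA3D, and the SEMA3D call was lost relative to its window and without 1 of the libraries. The largest fall in T5 was in the body of ANKS1A, an ankyrin repeat adaptor, with 8.4 and 7.5 CPM in T5, 14.1 and 5.9 in T320 and 35.6 and 37.7 in C. It was called in all 7 adapted populations, with log2 fold changes of -2.29 to -1.75, though its T5 call was lost without 1 of the libraries. HES7 (chr17:8123413-8127461) rose by 1.62 in T10 and 2.27 in T40, with 134 and 157 CPM in T40, 95.5 and 96.9 in T320 and 33.8 and 26.5 in C. In T5 it had 31.4 and 31.4 CPM, within the range of C.

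Other peaks between genes moved early in the series. A peak near PDGFA, a platelet-derived growth factor chain, had 9.5 and 7.0 CPM in T10 and 31.0 and 29.3 in C, a fall of 1.88. A peak near GPR37L1, an orphan receptor gene, fell by 2.50 in T20, to 11.3 and 11.0 CPM, against 58.4 and 68.3 in C, and stood at 102 and 101 CPM in P320. A peak with TSNARE1 as its nearest coding gene, 180156 bp away, rose by 1.65 in T10 and 1.35 in P10 and had 12.8 and 16.6 CPM in P320, against 21.3 and 12.1 in C.

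**Figure D5:**
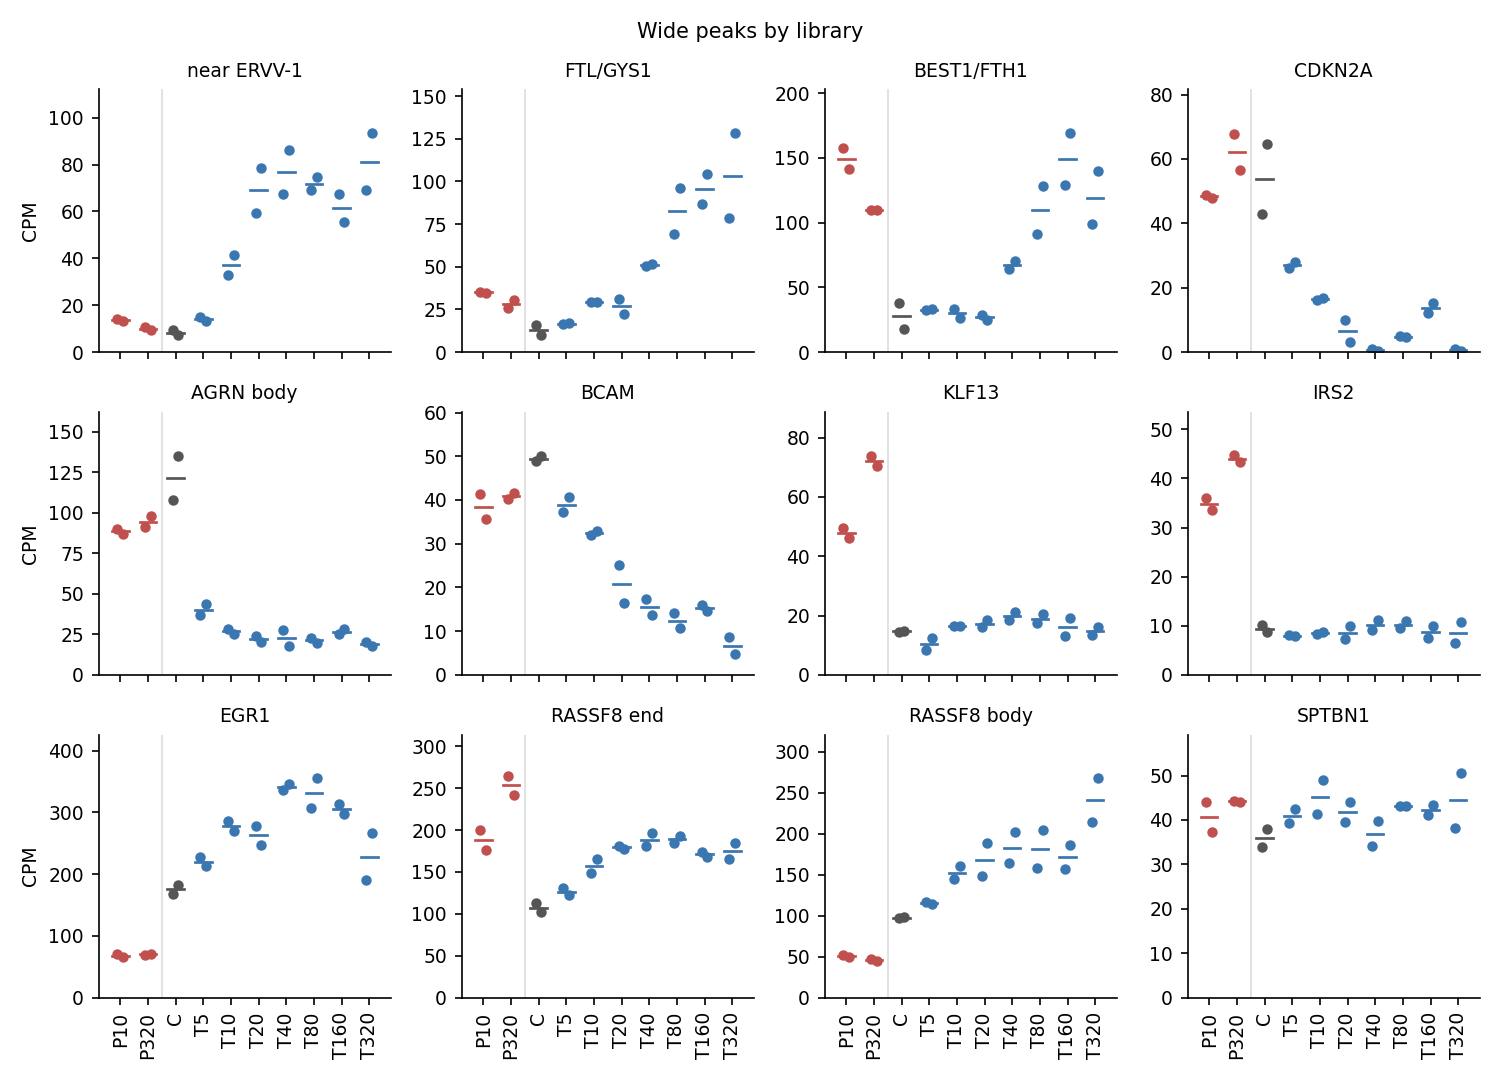
Level of selected very wide peaks in each library (CPM, linear axes from 0; points are libraries and lines the mean of 2) in P10, P320, C and T5 to T320. The CDKN2A peak is near 0 in T40 and T320 and between 48.0 and 67.7 CPM in the P libraries, and the KLF13 and IRS2 peaks are higher in the P libraries than in all C and T libraries.

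In P320 the largest rises among wide peaks were at KLF13 and IRS2. The KLF13 peak, over a Krüppel-like repressor gene (chr15:31325533-31328642), had 73.9 and 70.5 CPM in P320 and 14.4 and 14.8 CPM in C. Its log2 fold change was 2.30 ± 0.21 (edgeR adjusted p = 9.5e-06), and it was 1.71 ± 0.21 in P10. The IRS2 peak (chr13:109784354-109787695), over the adaptor that links insulin and IGF receptors to PI3K, had 44.7 and 43.3 CPM in P320 and 10.1 and 8.7 in C, a rise of 2.23 ± 0.22. In the T libraries KLF13 ranged from 8.4 to 21.1 CPM and IRS2 from 6.4 to 11.1 CPM, so neither was called in any adapted population.

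The next rises were at FTH1, already given, at PLK2, a polo-like kinase, at USP12, a deubiquitinase, and at CTBP1, a transcriptional corepressor. PLK2 rose in P320 by 1.67 ± 0.28 and in T320 by 1.91 ± 0.28. USP12 had 59.9 and 62.3 CPM in P320 and 19.0 and 20.5 in C, and CTBP1 had 50.7 and 50.5 CPM in P320 and 17.7 and 15.9 in C. Their T320 log2 fold changes were -0.15 and -0.20. The 3 promoters printed above for KLF13, IRS2 and USP12 hold 43 to 50 CG dinucleotides, against a median of 30.5 and an upper quartile of 40 in windows inside wide peaks. These 3 were picked for their rises, and a link between CG content and change was not tested.

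Few wide peaks fell in P320. The smallest of the 9 falls, named after their values were seen, were in the body of LMO7 (1.02), near FJX1 (1.02) and at a peak 417958 bp from LRATD2 (1.04), and all 3 also fell in T320. EGR1 had 69.5 and 70.4 CPM in P320, 70.0 and 64.9 in P10 and 168 and 183 in C, with a fall of 1.33 in P320 (SE 0.17, edgeR adjusted p = 8.8e-05) and of 1.38 in P10. The groups did not overlap, and every T library lay above both C libraries. In T320 EGR1 had 190 and 266 CPM and a log2 fold change of 0.38, which did not pass. FOS, the partner of JUN in AP-1, fell in P10 by 1.87, to 16.7 and 16.5 CPM, against 68.7 and 53.4 in C. In P320, at 34.5 and 31.5 CPM, FOS had a log2 fold change of -0.89, and it rose in T40 by 1.23 and in T80 by 1.12. RBMS1, an RNA-binding protein, fell in P10 by 1.86.

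Of the 9 falls, the 6 largest were at EGR1 and in 5 gene bodies, 2 of these in RASSF8. The other 3 bodies were those of SEMA3D, a secreted guidance factor (fell by 1.20), SH3RF1, a scaffold of the JNK pathway (fell by 1.09), and ITPR2, an IP3 receptor (fell by 1.05). None of these 5 body peaks kept its call when the fold change was taken relative to its 5 Mb window, where the values were -0.71 and -0.50 in RASSF8, -0.78, -0.81 and -0.48. The SEMA3D, SH3RF1 and ITPR2 calls were also lost without 1 of the libraries.

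RASSF8 was the gene with most wide peaks, and they did not move together. The end peak at chr12:25957730-25960762 had 166 and 185 CPM in T320, 265 and 242 in P320 and 113 and 102 in C, with log2 fold changes of 0.71 in T320 and 1.24 in P320. The first body peak, chr12:25968648-25971813, had 170 and 176 CPM in T320, an average of 52.0 ± 2.83 in P320 (SD, n = 2) and 84.1 and 67.3 in C. The second, chr12:25994356-25998249, had 215 and 268 CPM in T320, 46.5 and 44.8 in P320 and 96.8 and 98.0 in C. The third, chr12:26042182-26045556, had 138 and 158 CPM in T320, 28.9 and 30.7 in P320 and 76.7 and 71.1 in C. In all 3 body peaks T320 was above C and P320 below it. The rises in T320 were 1.20, 1.31 and 1.01, and the log2 fold changes in P320 were -0.54, -1.09 and -1.31, the first of which did not pass. At the end peak both were above C, and P320 was the higher.

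T320 and P320, the adapted and the briefly exposed cells at the same 320 uM, were compared directly. Of the wide peaks 264 were called (27.1%, against 34.2% of all peaks), with 58 higher in T320 and 206 lower. Over all peaks 19.7% were higher and 14.5% lower. Of the 647 wide peaks at gene ends, 17 were higher in T320 and 161 lower. Narrower peaks at gene ends also held a smaller share of counts in T320 than in P320, 30.5% against 37.9%. Whether the split goes with width or with position was not tested. The median log2 fold change of T320 over P320 was -0.44 for wide and 0.03 for narrower peaks. With the abundance trend removed the called split was 77 higher and 140 lower. At 10 uM, T10 against P10, 177 wide peaks were called (18.2%, against 32.9% of all peaks, 17.8% higher and 15.1% lower), with 68 higher in T10 and 109 lower, a 38.4% share of higher calls that was 18.7% with the abundance trend removed.

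Groups of genes with wide peaks were described by role. Their counts stand beside those of all peaks, of which 3.94% were higher and 7.91% lower in P320, 15.0% and 15.5% in T320, and 69.6% differed over the 10 groups. Of all wide peaks 11.2% were higher in P320 and 6.67% in T320. Immediate early, AP-1 and KLF genes, which respond within minutes to growth and stress signals, held the most, with wide peaks at 15 of 41 listed genes. In P320, 4 of these 15 rose and 1 fell. The risers were KLF13, the TGF-beta-inducible KLF10 (1.21), CEBPB and CEBPD (1.01), and EGR1 fell. In T320 2 rose, CEBPB and the circadian repressor BHLHE40, whose peak had 84.9 and 139 CPM in T320 and 43.8 and 61.6 in C. The median log2 fold change of the 15 was 0.56 in P320 and 0.22 in T320, beside 0.40 and 0.04 over all wide peaks. Over the 10 groups 10 of the 15 differed, near the background of 69.6% of all peaks.

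YAP and TEAD targets and cofactors had wide peaks at 9 of 22 genes, among them CCN1, CCN2, AMOTL2 and YAP1. None of the 9 was called against C in any of the 9 populations, and 4 differed over the 10 groups, beside 69.6% of all peaks. CCN2 had 71.1 and 68.4 CPM in P10, 223 and 202 in T160 and 117 and 148 in C. AMOTL2, an inhibitor of YAP, had 91.2 and 91.8 CPM in T160 and 44.8 and 51.7 in C, a log2 fold change of 0.92.

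Growth factor signalling genes had wide peaks at 6 of 30, and 3 of these rose in P320 and none in T320, beside 3.94% and 15.0% of all peaks. The 3 were IRS2, the receptor tyrosine kinase FGFR3 (24.3 and 23.1 CPM in P320, 9.2 and 6.2 in T320 and 8.3 and 10.2 in C) and the angiogenic factor VEGFA (74.3 and 71.2 CPM in P320, against 34.6 and 36.2 in C). EPHA2, IGF1R and SPRY1 were not called in P320. Chromatin regulators had 6 of 30. The remodelling ATPase SMARCA2 rose in T320 (1.25) and in P320 (1.22), and the histone demethylase KDM6B rose in T320 (1.02), with 140.5 and 179.6 CPM against 64.3 and 93.4 in C.

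Constitutive genes often used as stable references had 8 wide peaks at 7 of 30 genes, and 2 of these rose in T320. The GAPDH peak, shared with IFFO1, had 94.7 and 138 CPM in T320, 53.2 and 53.5 in P320 and 31.8 and 28.0 in C, a rise of 1.97 ± 0.20. The ribosomal protein gene RPL3 rose by 1.25. ACTG1, a cytoplasmic actin, rose in T80 (1.11) and T160 (1.18) and had a log2 fold change of 0.77 in T320. Over the 10 groups 7 of the 8 differed, beside 69.6% of all peaks. Of the 5 lineage wide peaks BCAM and WT1 fell in T320 and none was called in P320. KRT8 had 37.7 and 42.7 CPM in T320, 48.7 and 49.8 in P320 and 30.0 and 23.6 in C, and its log2 fold changes of 0.59 and 0.88 did not reach the fold threshold.

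The remaining lists held few wide peaks. Mesenchymal genes had 5 at CDH2, MYL9, TPM2 and ZEB1, none called against C. NF-kB genes had 4 at 3 genes, and TNFAIP2 fell in T5 by 1.07. The p53 targets BBC3 and PPM1D were not called against C, and of the cell cycle genes CDK6, CDKN2A and E2F3 only CDKN2A was called. HOXB7 and HOXB8 shared 1 wide peak, which rose in T40 (1.04). BMP4, a secreted TGF-beta family ligand, rose in T20, T40, T80 and T160 by 1.03 to 1.45 and had 0.71 in T320, and ID3, its textbook target, was not called against C. CLDN5, an endothelial junction protein, rose in P10 and P320 (1.06 and 1.03), and ERG and SOX2 were not called against C. No wide peak lay at any of 31 homologous recombination and PARP genes or 24 integrated stress response genes, although 30 and 24 of these had a peak at an end.

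Of the 16 wide peaks over microRNA genes, 2 were called in T320 and 2 in P320, beside 30.5% and 11.8% of all peaks. The peak at MIR3131 and IHH, a hedgehog ligand, fell in T320 by 1.58, with 10.4 and 3.8 CPM against 22.9 and 18.1 in C. The peak at MIR4647 and SLC35B2 rose in T320 by 1.09. In P320 the peaks at MIR345 with SLC25A29 and at MIR6821 with the kinase gene PIM3 rose by 1.10 and 1.08. The peak over MIR96 and MIR183, a sensory and epithelial microRNA cluster, was not called against C in either.

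Some 5 Mb windows held several called wide peaks, and the median change of their narrower peaks is given beside them. Over all peaks in T320, 15.0% were called higher and 15.5% lower. Shares called among the narrower peaks of each window are not given, so the counts do not compare wide peaks with their neighbours. On chromosome 1, 28 of 116 wide peaks fell in T320, with a wide median of -0.60 and a narrower median of -0.73. In its first 5 Mb 4 of 7 wide peaks fell, AGRN among them, where 283 narrower peaks had a median of -0.87. On chromosome 17 from 5 to 10 Mb 5 of 8 rose, including HES7, a Notch-responsive repressor, and KDM6B, with a narrower median of 0.84. On chromosome 19 from 50 to 55 Mb 3 of 4 rose, including the peak near ERVV-1, where the 207 narrower peaks had a median of 1.51. Gains or losses of DNA and of accessibility cannot be told apart in such windows from these counts. Relative to their windows, the 81 wide peaks called in T320 stand beside 142 in the unadjusted fit, and 63 were called in both.

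In P320, 3.94% of all peaks were called higher and 7.91% lower. There, on chromosome 4 from 0 to 5 Mb all 3 wide peaks rose, at CTBP1, FGFR3 and SH3BP2, with a wide median of 1.35 and a narrower median of 0.15. On chromosome 14 from 100 to 105 Mb 4 of 12 rose, among them YY1 and BAG5, with a narrower median of 0.02. On chromosome 12 from 25 to 30 Mb, the region of RASSF8 and ITPR2, 3 of 8 wide peaks fell beside 1 that rose, and the 436 narrower peaks had a median of -0.74. In T320 the same window had 3 rises and a narrower median of 0.48.

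Some wide peaks held nearly the same level in all populations. The peak of PLCE1, a phospholipase C (chr10:93991116-93995186), ranged from 25.0 to 33.6 CPM over the 20 libraries. The SPTBN1 peak, at a beta-spectrin gene of the membrane skeleton (chr2:54556345-54560750), ranged from 33.9 to 50.7 CPM, and a TMEM131L body peak from 31.9 to 51.1 CPM. A peak overlapping the PVT1 region with MYC as its nearest coding gene, 65823 bp away, ranged from 126 to 203 CPM. None of these 4 was called against C in any population, and their log2 fold changes lay between -0.28 and 0.35.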

How the data were processed

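ATAC-seq reads were processed by the submitters, and the deposited table, made by the authors, gives whole-number counts per consensus peak and library on GRCh38, with no normalization. Per the submitters' processing notes, the tools used, with no roles given, include MACS2, HOMER 4.1, SAMtools, DESeq2, Bowtie2, deepTools (3.1 and 3.5.1), Trim Galore and Picard. Whether reads or fragments were counted is not given in the sources used here. Starts are printed as in the table, whose counting base (0 or 1) is not stated.

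Counts were fitted as deposited with edgeR 4.0.16 in R 4.3.3 (TMM, robust quasi-likelihood, group means, 20 libraries), and p-values were adjusted over all 105048 peaks. The filter filterByExpr removed 0 peaks. Depth was 9627970 to 29699950 counts per library, and wide peaks averaged at least 157 counts. CPM are counts per 1000000, scaled by TMM. Other settings were total counts, size factors of DESeq2 (1.42.0), DESeq2 itself, an abundance-trended offset, a 5 Mb window offset, other filters and widths, a replicate block and leaving out each library (limma 3.58.1 for the offsets; Python 3.11.15, pandas 2.3.3, SciPy 1.17.1 and matplotlib 3.10.9 elsewhere). The fitting steps were also run on simulated data with 200 changed peaks. Those counts were drawn independently for each library, so effects shared by same-numbered libraries were not simulated.

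Genes, promoter windows and microRNAs came from RefSeq tables on GRCh38.p14, in which 15813 of 19974 coding genes had a listed start. A peak was named by a coding gene with a listed start or either end inside it or within 1 kb, otherwise by the gene whose body it lies in, otherwise by the nearest. Peaks were named in the text if among the 8 widest, the 8 highest per kb, the 6 largest rises and falls in T320 and in P320, the 2 largest in each other population, the 4 most constant, those beside the threshold (1 of which is not reported here), or the 2 with the smallest p per gene list. Other members of the lists, the microRNA peaks, the peaks in windows and the neighbours of CDKN2A were added after their values were seen. The wide peaks, the 20 gene lists and the tests were chosen with earlier results of these data known.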

Additional observations from a re-analysis of the deposited data

Results flagged for a closer look

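In RASSF8, 2 body peaks moved in opposite directions from C in the adapted and the briefly exposed cells at 320 uM, and the direct comparison of T320 with P320 passed the threshold for both. For chr12:26042182-26045556 the log2 fold change of T320 over P320 was 2.31 ± 0.18 (SE; edgeR adjusted p = 9.9e-08), with 1.01 against C in T320 and -1.31 in P320. For chr12:25994356-25998249 it was 2.40 ± 0.18 (edgeR adjusted p = 9.0e-08), with 1.31 and -1.09. Both were called in each of 15 alternative fits of T320 against P320, where the values ranged from 1.18 to 2.58 and from 1.26 to 2.66, with highest adjusted p-values of 0.0033 and 0.0031. These fits concern the direct comparison and not the opposite directions from C. Relative to the 5 Mb window, neither peak kept its call as a fall in P320, as given above. The fit with no filter repeats the main one, because the filter removed 0 peaks. Both peaks were flagged because this comparison was called, so the fits show dependence on settings and are not independent support. The lowest values came from fits relative to the other peaks of the same 5 Mb window, and the narrower peaks of that window had medians of 0.48 in T320 and -0.74 in P320. With 2 libraries per group no library could be tested as an outlier.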

How the results depend on the processing

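The trended offset turned the wide medians of T10, T20 and T160 below 0 (-0.04, -0.01 and -0.05) and left more wide peaks lower than higher in T40, T80 and T160, and the cause was not tested. The window offset, with and without the replicate block, gave 41 higher and 40 lower in T320, against 65 and 77. Percentages here are shares of wide peaks called. With the window offset they dropped, T5 to 0.923%, T10 to 2.97%, T20 to 4.82%, T40 to 5.54%, T80 to 6.15%, T160 to 5.54%, T320 to 8.31% and T10 against P10 to 10.7%. Of the wide peaks called in the main fit, this offset kept 26.1% in T5, 35.0% in T20, 44.4% in T320, 51.8% in P10 and 65.3% in P320. With the replicate block and window offset, T5 came to 0.923%, T10 to 2.87%, T20 to 4.82%, T40 to 5.64%, T80 to 6.26%, T160 to 5.44%, T320 to 8.31% and T10 against P10 to 10.8%. With no fold minimum, T5 reached 10.5%, T10 25.6%, T20 40.8%, T40 44.0% and T80 42.6%. T160 reached 36.5%, T320 42.7%, P10 43.7%, P320 44.3%, T320 against P320 61.6% and T10 against P10 48.1%, and the order against all peaks then turned in T20 to T320 and over the 10 groups (85.6% against 76.1%). The trended offset gave 6.26% in P320 and kept 45 of the 118 main calls there, and the cause was not tested. With widths of at least 2000 bp T5 had 4.87% and T10 9.80%. With widths of at least 4000 bp T10 had 3.16%, T20 4.21%, T40 6.32%, T80 6.32% and T320 9.47%, over fewer peaks.

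The share of counts over C moved by more than the spread of libraries at 2000 bp, to 0.998 in T5, 1.04 in T10, 1.06 in T80, 1.07 in T160, 1.10 in P10 and 1.17 in P320, and at 4000 bp to 0.981 in T5 and 1.14 in T160. Leaving out 1 library gave called shares of 1.44% (without T5 replicate 2) to 3.18% for T5, 5.13% to 6.87% for T10, 7.28% to 14.5% for T20, 10.9% to 16.9% for T40, 10.6% to 16.0% for T80, 9.33% to 12.0% in T160, 12.5% to 18.7% in T320, 10.2% to 14.5% in P10, 12.0% to 17.7% in P320, 57.0% to 61.5% over the 10 groups, 27.9% to 30.3% in T320 against P320 and 15.7% to 20.9% in T10 against P10. The share ratio over C then ranged from 0.979 to 0.992 in T5, 0.979 to 1.06 in T320, 1.17 to 1.19 in P10 and 1.22 to 1.24 in P320. A group left with 1 library was assumed to vary like the others.

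The replicate block alone gave 14.6% in T320 and moved no called share by over 1.5 times. Libraries with the same number deviated together with a correlation over 0.1 in 28 of 45 pairs of groups. Over all peaks the median correlation was 0.284 and the lowest -0.0955. Over wide peaks the median was 0.427, the lowest -0.333 and the highest 0.755. The labels do not say what the numbers mark, so they were not taken as pairs in the main fit. What same-numbered libraries share was not tested. In C, replicates 1 and 2 held 11347046 and 22218981 counts, and replicate 1 held fewer in every T population as well. P10 held 22184883 and 22437074 counts and P320 29699950 and 27936456. Whether the P libraries were prepared or sequenced apart from the others is not stated and was not tested. Of the 52 comparisons of single named peaks, 6 lost their call with the window offset, 6 in at least 1 fit without a library and 1 with only its own groups fitted. Depth limits the low levels most, as at CDKN2A in T40 and T320.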
